A study of Homo sapiens with 15 samples.

Results

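Chromosome 8 was described by its 2 arms, the short arm 8p and the long arm 8q, in Pt-exo-seq libraries of the ovarian cancer cell lines PEO1 and PEO4. Pt-exo-seq maps platinum adducts on DNA: sheared fragments are digested by exonucleases that stop at a platinum-blocked base, the platinum is displaced, and the remaining strands are sequenced from a single end. All windows of the count table on chromosome 8 were taken, 162627 of 3439652, and a window belonged to 8p where its midpoint lay below 45.6 Mb on hg19 and to 8q above. This gave 50667 windows on 8p and 111960 on 8q. The chromosome was selected on values of these data, namely the difference between the untreated libraries of both lines, so the untreated difference is given as a description with no test.

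The 15 libraries formed 5 groups of 3: untreated PEO1, PEO1 treated with 16 µM cisplatin, untreated PEO4, and PEO4 treated with 16 µM or 32 µM cisplatin. PEO1 is labelled clinically sensitive to platinum and PEO4 clinically resistant, and both are established ovarian cancer lines from the same patient. Cells were exposed for 5 h. The PEO4 dose of 32 µM was set against the PEO1 dose of 16 µM as loading a like amount of platinum on DNA, and 16 µM in both lines was the comparison at equal dose. The labels do not say whether the replicates were separate cultures, so p-values measure the spread between these libraries, which may be technical, and each resistance class is 1 cell line. Treated and untreated libraries of a line carry the same genome. A comparison of lines in treated libraries therefore repeats the measurement in other libraries, not in other cells, and the number of DNA copies of a region and the number of adducts on it cannot be told apart from a line difference.

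High-grade serous ovarian carcinomas carry many gains and losses of chromosome arms, and those of chromosome 8 are among the best known. Loss of 8p removes a series of candidate tumour suppressors, such as DLC1 and TUSC3. Gain of 8q raises the dose of MYC, a transcription factor that drives growth, and of its neighbour PVT1, a long non-coding RNA. Reads that survive exonuclease digestion without an adduct form the background of the assay, and this background follows the number of DNA copies in a cell, the share of a region to which reads can be aligned, and base composition.

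Libraries held between 27.7 and 56.6 M counts in total, with a median of 33.1 M. The coefficient of variation between replicates, from the median trended dispersion of edgeR, was 10.0% for 100 kb bins, 7.1% for 1 Mb bins and 13.99% for gene bodies. Libraries differed in how their counts followed GC content. Against the untreated mean of its line, the log2 count rose by 0.395 per 10 percentage points of GC in PEO1 16 µM replicate 1, and fell by 0.461 in PEO4 16 µM replicate 1, by 0.437 in PEO4 32 µM replicate 2 and by 0.339 in PEO4 32 µM replicate 3. Results in GC-rich parts of the chromosome are therefore also given after each library's own GC trend was removed.

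Reads on 8p summed to between 404689 and 841174 per library and reads on 8q to between 1618913 and 3976435. GC content was 41.5% on 8p and 39.5% on 8q, against 40.9% over all tested bins. In 7.38% of the 8p windows and 2.68% of the 8q windows no library had a read, and within single libraries the share of windows without a read was 13.3% to 27.4% on 8p (median 18.7%) and 4.1% to 17.5% on 8q (median 6.8%). The arms held 284 and 424 protein-coding genes. At the arm boundary, the last tested 100 kb bin on 8p (chromosome 8, 43300001 to 43400000) had reads in 111 of its 111 windows, with counts scaled to the median library of 1229 ± 127 in PEO1 16 µM, 1166 ± 112 in PEO4 16 µM and 1137 ± 76.8 in PEO4 32 µM (SD, n = 3). The first tested bin on 8q (47400001 to 47500000) had reads in 48 of 111 windows and lower scaled counts of 546 ± 90.004, 507 ± 46.2 and 483 ± 73.2. The bins between them lie around the centromere and were below the count limit.

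The 8q arm took a larger share of the reads in PEO4 than in PEO1, and the 8p arm did not. In treated PEO1 the 8q arm held 4.98%, 5.24% and 5.21% of the reads of the 3 libraries. In PEO4 it held 7.35%, 6.99% and 7.02% at 16 µM and 7.004%, 7.30% and 7.28% at 32 µM. Every treated PEO4 library lay above every treated PEO1 library, by more than the range within any group. The log2 difference of the 8q share was 0.47 at 16 µM in both lines and 0.48 for PEO4 32 µM against PEO1 16 µM, each with an exact two-sided permutation p of 0.1, the smallest that 3 against 3 libraries can give. Both comparisons use the same PEO1 libraries. With the chromosomes and both arms of chromosome 8 fitted as 24 features in edgeR, the quasi-likelihood test gave adjusted p = 4.94e-09 and 3.46e-09. The untreated libraries on which the chromosome was selected held 5.28%, 5.14% and 5.19% in PEO1 and 6.99%, 7.09% and 6.95% in PEO4.

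**Figure D1:**
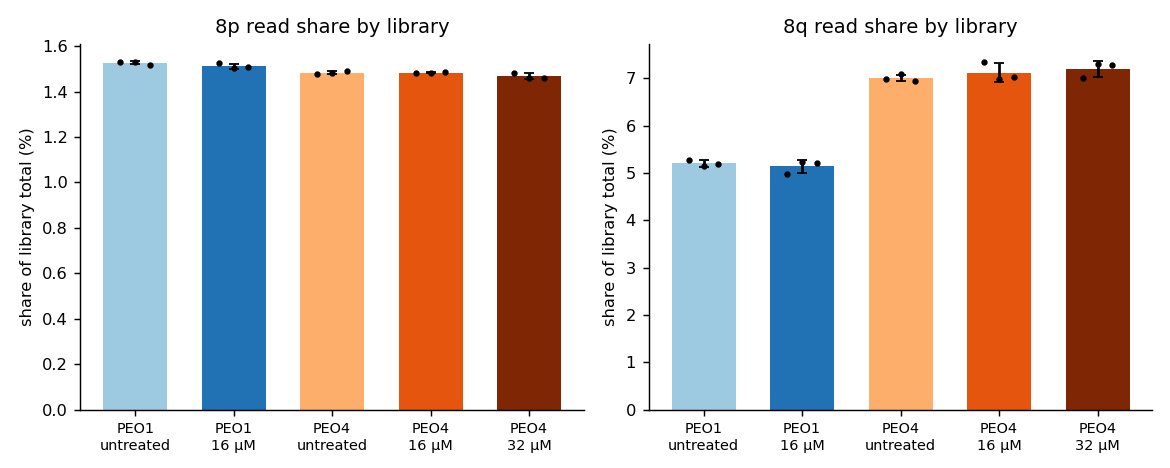
Share of the library total (%) on 8p and on 8q, as bars at the group mean with SD error bars and a point for each of the 3 libraries of a group. On 8q the PEO4 libraries lie between 6.95% and 7.35% and the PEO1 libraries between 4.98% and 5.28%, while on 8p all libraries lie between 1.46% and 1.53%.

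The 8p share was 1.53%, 1.503% and 1.51% in treated PEO1, 1.48%, 1.48% and 1.48% in PEO4 16 µM, and 1.48%, 1.46% and 1.46% in PEO4 32 µM. The lines did not overlap, yet the differences were small, with log2 values of -0.03 and -0.04 (exact permutation p = 0.1 for each) against a replicate SD of 0.0088. A library's shares sum to 100%, and the part of the larger 8q share in the 8p differences was not tested. When the library total was taken without chromosome 8, the 8p difference at 16 µM turned to 0.003, and that for 32 µM against 16 µM kept its sign. The edgeR fit over 24 features called both 8p differences, with adjusted p = 0.017 and 0.00119.

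The ratio of reads per window on 8q to reads per window on 8p compares the arms within a library and needs no scaling. It was 1.54 ± 0.053 in PEO1 16 µM, 2.17 ± 0.063 in PEO4 16 µM and 2.22 ± 0.071 in PEO4 32 µM (SD, n = 3). Reads were thus denser on 8q than on 8p in both lines, and more so in PEO4, by 0.50 and 0.53 on the log2 scale (exact permutation p = 0.1 for each). Without cisplatin the ratio was 1.54 ± 0.020 for PEO1 libraries, against 2.14 ± 0.029 for those of PEO4.

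Other chromosomes differed between the lines as well. At 16 µM the log2 difference of read share was 0.37 for the whole of chromosome 8. It was highest for chromosome 21, at 0.92, and lowest for chromosome 22, at -0.50. The value of 8q, 0.47, lay within this range.

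Read density was then followed along the chromosome. It is given relative to the median autosomal bin of the same library, with the library's GC trend removed and counting only windows with a read in some library, so that a value of 1 is the usual density of that library. Steps in the profile of untreated PEO1 divided the chromosome into 11 stretches, which are a description, and mean densities of the treated groups are given for these stretches. Their SDs between 3 replicates ran from 0.00142 to 0.0588, with a median of 0.0119.

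On 8p the density fell into 2 levels in both lines. From 0.1 to 6.8 Mb it was 0.498 in PEO1 16 µM, 0.451 in PEO4 16 µM and 0.460 in PEO4 32 µM, less than the usual density in all 3. From 12.4 to 43 Mb it was 1.14, 1.07 and 1.07. The first stretch holds the 8p23 end of the arm with CSMD1, a very long gene encoding a transmembrane protein. The border at 6.8 Mb lies among the defensins, genes for small antimicrobial peptides, and the border at 8.1 Mb lies near PRAG1. A pair of short stretches had still lower density: 6.8 to 8.1 Mb was at 0.220, 0.202 and 0.187 in the same groups, and 10.9 to 12.4 Mb at 0.449, 0.374 and 0.399. In these, 31.2% and 9.64% of windows had no read in any library. The stretch between them, 8.1 to 10.9 Mb, was at 1.13, 1.03 and 1.04.

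On 8q the lines followed each other only in part. From 43 Mb, across the centromere, to 62.5 Mb both stood near the usual density, at 1.04 in PEO1 and 1.02 in PEO4 16 µM. From 62.5 to 66.5 Mb PEO1 dropped to 0.529, and PEO4 stayed at 1.03 at 16 µM and 1.05 at 32 µM. From 66.5 to 97.3 Mb PEO1 returned to 1.10 and PEO4 stood at 1.57 at either dose. Both lines then stepped up at 97.3 Mb, a border near UQCRB, MTERF3 and PTDSS1, to 2.19 in PEO1 and 2.67 in PEO4 at either dose up to 135.9 Mb. Towards the end of the arm PEO1 came down, to 1.33 from 135.9 to 143 Mb and to 0.943 beyond, while PEO4 held 2.47 and 2.60 at the lower dose and 2.503 and 2.70 at the higher.

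The 2 lines thus shared the low density at the end of 8p and the step at 97.3 Mb. They differed in the stretch from 62.5 to 66.5 Mb, in the level from 66.5 Mb on, and most in the last 3.4 Mb of 8q, where the log2 difference at 16 µM was 1.46. In each stretch from 62.5 Mb on, the treated PEO4 libraries at 16 µM lay above those of PEO1 (exact permutation p = 0.1 for each). Stretches of other chromosomes were not compared in this way. On 8p the differences of the stretches of chromosome 8 were between -0.26 and -0.09. They depend on the median autosomal bin as reference: by read share with the GC trend removed, the difference up to 62.5 Mb was 0.006. That value pools 8p with the first part of 8q. On the same scale the untreated lines differed by -0.058 up to 24.7 Mb and by 0.031 from there to 62.5 Mb. A lower density of 8p in PEO4 is therefore neither read from the stretches nor excluded by the pooled value. The treated lines overlapped at 16 µM in the stretch from 6.8 to 8.1 Mb, at -0.12 (p = 0.2 in the exact test).

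**Figure D2:**
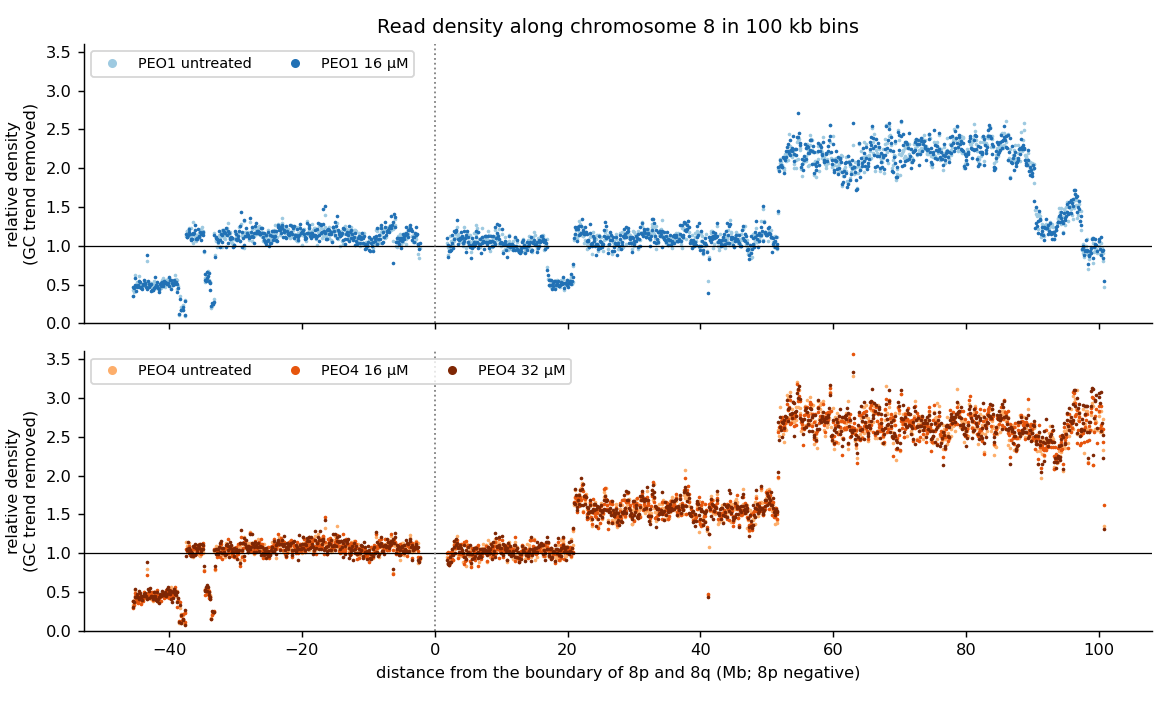
Read density relative to the median autosomal bin of the library, GC trend removed, in 100 kb bins against distance from the boundary of 8p and 8q (Mb, 8p negative), as group means of untreated and treated PEO1 (upper panel) and PEO4 (lower panel). Both lines sit at about 0.5 at the far end of 8p and step up at the same place on 8q, while PEO1 comes down to about 1 at the far end of 8q and PEO4 stays near 2.6.

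The ratio of the lines was segmented next. The log2 ratio of untreated PEO4 to untreated PEO1 in 100 kb bins was divided into stretches of equal level, with at least 10 bins each, which set 6 borders and 7 segments. Their levels were then compared in the treated libraries, which did not set the borders but carry the same genomes. A difference in these segments was therefore given in advance. The segment values are a description, and their p-values measure only the spread between libraries. Segment 1 ran from 100001 to 62500000, across all of 8p, the centromere and the first part of 8q, with 580 bins and 329 protein-coding genes. The segments that followed were segment 2 (62500001 to 66500000, 40 bins and 7 genes), segment 3 (66500001 to 104000000, 374 bins and 162 genes), segment 4 (104000001 to 135900000, 319 bins and 96 genes), segment 5 (135900001 to 142000000, 61 bins and 8 genes), segment 6 (142000001 to 143000000, 10 bins and 6 genes) and segment 7 (143000001 to 146364022, 32 bins and 100 genes), all on chromosome 8 of hg19. GC content was 37.7% to 41.9% in segments 1 to 5, but 53.7% in segment 6 and 54.6% in segment 7.

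The differences between the treated lines were near 0 in segment 1 and clear of the replicate spread in segments 2 to 7. In segment 1 the treated log2 difference was -0.01 at 16 µM, with overlapping libraries (exact permutation p = 0.4), and -0.02 for 32 µM against 16 µM (exact permutation p = 0.1), and with the GC trend removed the values were 0.006 and 0.005. These are differences of read share. On the density scale, which is set by the median autosomal bin, segment 1 was at 0.961 ± 0.0045 in PEO1 16 µM and 0.905 ± 0.0042 in PEO4 16 µM (SD, n = 3), so that the size of such small differences depends on the reference. In segments 2 to 7 every treated PEO4 library lay above every treated PEO1 library in both comparisons (exact permutation p = 0.1 for each). At 16 µM the log2 differences from segment 2 to segment 7 were 1.00, 0.52, 0.34, 0.97, 0.86 and 1.48. At 32 µM against 16 µM they were 1.06, 0.54, 0.36, 0.95, 0.89 and 1.52. The untreated values that set the borders were 0.93, 0.47, 0.27, 0.94, 1.38 and 1.98, with -0.04 in segment 1.

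With the GC trend removed, the differences at 16 µM in segments 2 to 7 became 1.05, 0.58, 0.37, 0.99, 0.86 and 1.49. The order of the segments was kept, with segment 4 lowest and segment 7 highest. Levels within segment 7 were spread as counted. Without GC removal the relative density there was 1.21, 0.801 and 0.788 in PEO1 16 µM and 1.96, 3.01 and 2.87 in PEO4 16 µM. With it PEO1 was at 0.928, 0.968 and 0.934 and PEO4 at 2.67, 2.58 and 2.56, and replicates lay closer together.

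**Figure D3:**
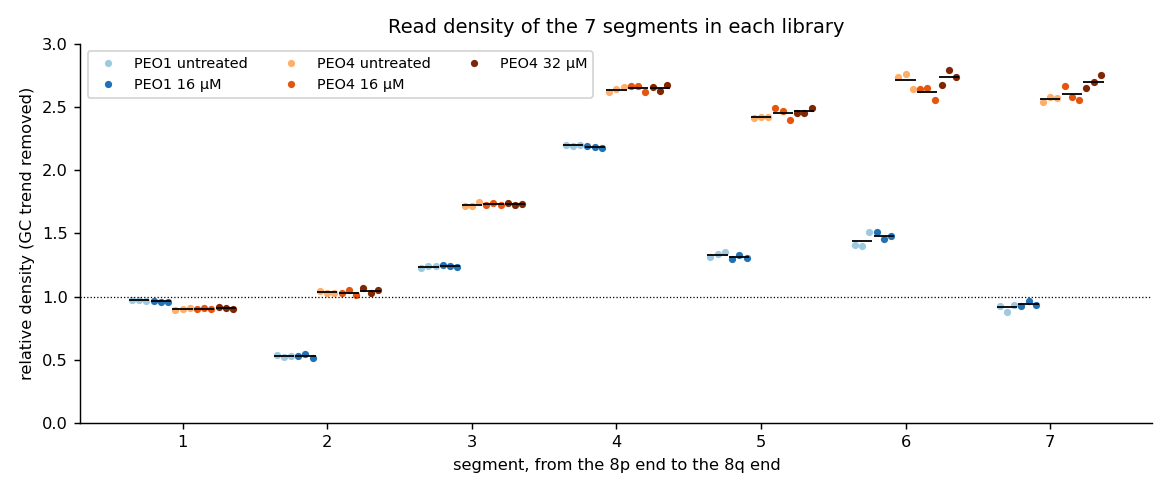
Relative density of the 7 segments with the GC trend removed, a point for each library and a line for each group mean. PEO1 and PEO4 stand at about 0.96 and 0.90 in segment 1, and PEO4 stands above PEO1 in segments 2 to 7, most in segment 7.

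Segments 2 to 7 together took 1.96 percentage points more of the reads in PEO4 16 µM than in PEO1 16 µM and 2.04 points more at 32 µM against 16 µM. Segment 3 gave 37.3% of this surplus at 16 µM and segment 4 gave 33.1%. Their log2 differences were the lowest of the 6 segments, and they hold the most bins. Segment 5 gave 14.1%, segment 7 gave 9.68%, segment 2 gave 3.79% and segment 6 gave 2.08%.

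Some borders were found in more settings than others. Over 13 ways of setting them, the border at 66.5 Mb was found within 3 bins in all 13, those at 62.5, 135.9 and 143.0 Mb in 12, and those at 104.0 and 142.0 Mb in 6. With the GC trend removed, neither the border at 104.0 Mb nor that at 142.0 Mb was found. There 135.9 to 143.0 Mb formed a single segment at 0.95, so segment 6 was not separate. Segment 1 was split at 24.7 Mb in that setting, at -0.058 before this border and 0.031 after it. Borders set on the treated libraries placed the step at 97.3 Mb instead of 104.0 Mb and had none at 142.0 Mb. The border at 62.5 Mb lies next to ASPH and CLVS1, that at 66.5 Mb next to ARMC1 and MTFR1, that at 104.0 Mb next to AZIN1 and ATP6V1C1 and that at 142.0 Mb next to PTK2. The closest genes at 135.9 Mb and 143.0 Mb were ZFAT, 74.7 kb away, and TSNARE1, 193 kb away.

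In 10 Mb blocks, the 16 µM differences of the first 6 blocks from the 8p end were -0.06, -0.05, -0.00, -0.02, -0.01 and 0.03 on the log2 scale. The next 9 blocks were at 0.57, 0.58, 0.58, 0.50, 0.41, 0.34, 0.31, 0.56 and 1.16. For 32 µM against 16 µM the first 6 blocks were between -0.08 and 0.05 and the next 9 between 0.28 and 1.18. On this scale the difference thus starts within the seventh block, declines through the middle of 8q and is highest in the last block, which is shorter than the others.

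Single bins gave the same picture by count. Of 456 bins of 100 kb on 8p, 429 passed the limit of a mean count of 50, and of 1008 on 8q, 987 did. The edgeR quasi-likelihood test at a Benjamini-Hochberg adjusted p under 0.05 called 806 of the 987 bins on 8q higher in PEO4 16 µM and none lower. Over all 28190 tested bins 23.3% were called and 12.9% were called higher in PEO4. For 32 µM against 16 µM, 806 were called higher on 8q, against 23.4% called and 12.8% called higher over all bins. On 8p, 1 bin was called at 16 µM and 2 at 32 µM against 16 µM, all lower, and 12 and 16 had an unadjusted p under 0.05. Over the whole genome such a p was met by 26.1% and 27.3% of 100 kb bins, and by 28.6% and 30.3% of 1 Mb bins. In 1 Mb bins, 89 of 100 on 8q were called higher at 16 µM (25.5% of all bins were called and 14.1% called higher), and none of 44 on 8p was called by edgeR or had an unadjusted p under 0.05. For 32 µM against 16 µM (26.3% called, 14.5% called higher) 0 of 44 bins on 8p were called and 1 had an unadjusted p under 0.05. DESeq2 called 0 of these 44 bins in either comparison, but a GC offset in the edgeR fit gave calls among them in both, as listed in the closing section. In the fits without the offset, the share called on 8q lay far above these backgrounds and the share on 8p below them.

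By segment, the 16 µM comparison called higher 40 of 40 bins of 100 kb in segment 2, 372 of 374 in segment 3, 291 of 319 in segment 4, and all 61, 10 and 32 bins in segments 5, 6 and 7. In segment 1 it called none of 580 higher and 1 lower. Over all tested bins 23.3% were called and 12.9% called higher. The segments were drawn on the untreated line difference of the same genomes, so this split between segments is a description. Segment 4, with the lowest difference of segments 2 to 7, thus also had the lowest share of bins called.

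**Figure D4:**
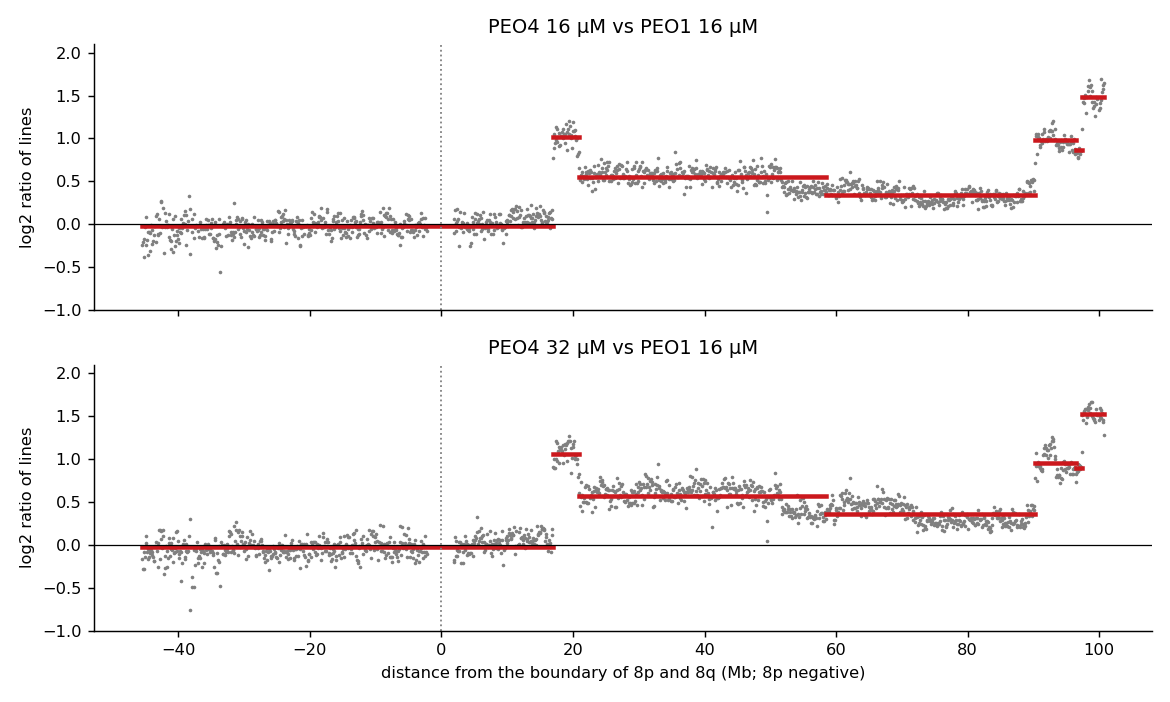
Log2 ratio of treated PEO4 to treated PEO1 in 100 kb bins against distance from the boundary of 8p and 8q (Mb, 8p negative), for 16 µM in both lines and for 32 µM against 16 µM, with lines at the segment levels. Values lie near 0 on 8p and the first part of 8q, and then at segment levels between 0.34 and 1.48 at 16 µM.

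The called 8p bins were 2. The bin from 3400001 to 3500000, inside CSMD1, was lower in PEO4 in both comparisons, by log2 -0.32 in each (edgeR adjusted p = 0.0338 in each), a call kept in 6 of 14 other settings. The bin from 19400001 to 19500000, inside CSGALNACT1, which encodes an enzyme of chondroitin sulfate synthesis, was called lower at 32 µM against 16 µM, at -0.28 (edgeR adjusted p = 0.0367). Another bin of CSMD1 had the opposite sign: the 8p bin with the smallest p among those higher in PEO4 16 µM, 3000001 to 3100000, lies in the same gene at 0.29 (edgeR adjusted p = 0.113). Among 1 Mb bins of 8p the highest value at 16 µM was 0.13 at 7000001 to 8000000, which holds defensins (adjusted p = 0.576 by edgeR). The lowest was -0.16 at 1 to 1000000 (adjusted p = 0.523 by edgeR). With a GC offset the lowest bin stood at -0.14 and was called (edgeR adjusted p = 0.0159). At 32 µM against 16 µM the highest and lowest were 0.12 at 14000001 to 15000000, in SGCZ, a sarcoglycan gene, and -0.12 at 11000001 to 12000000. The 100 kb bin higher with the smallest p lay in SGCZ as well (14400001 to 14500000, 0.29, edgeR adjusted p = 0.0531).

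On 8q the 1 Mb bin with the highest value at 16 µM was the last of the chromosome, 146000001 to 146364022, at 1.61, with RPL8, a ribosomal protein gene, and zinc finger genes such as ZNF7. Within it, the 100 kb bin from 146100001 to 146200000 with ZNF16 and ZNF250 had the smallest p of 8q, at log2 1.60 (edgeR adjusted p = 8.26e-09). For 32 µM against 16 µM the highest 1 Mb bin was 144000001 to 145000000, at 1.56. The lowest bins of 8q lay next to the centromere within segment 1, at -0.01 for 49000001 to 50000000, which holds SNAI2, a repressor of E-cadherin, and at -0.05 for 47000001 to 48000000 at 32 µM against 16 µM. None of the 8q bins of 100 kb was called lower, the smallest p in that direction being at 54900001 to 55000000, across LYPLA1 and TCEA1, with -0.20 (edgeR adjusted p = 0.0995).

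Genes were followed by their whole gene bodies, with a level given as reads per 1 kb window scaled to the median library, a unit that allows genes of different length to be compared. Of the 17237 gene bodies tested across the genome, 216 lay on 8p and 402 on 8q. At 16 µM, 284 of the 402 on 8q were called higher in PEO4 and none of the 216 on 8p was called by edgeR, where 4 had an unadjusted p under 0.05. Over all gene bodies 18.1% were called and 10.4% called higher in PEO4. At 32 µM against 16 µM, 294 were called higher on 8q (18.3% called and 10.7% called higher over all gene bodies), and on 8p 0 were called by edgeR and 7 had an unadjusted p under 0.05. Such a p was met by 22.8% of all gene bodies at 16 µM and by 23.5% at 32 µM against 16 µM. LYPLA1, an acyl-protein thioesterase gene in the 8q part of segment 1, was called lower at 32 µM against 16 µM, at -0.32 (edgeR adjusted p = 0.0486), and stood at -0.15 at 16 µM (edgeR adjusted p = 0.562). Gene bodies that overlap share windows, and reads were not separated by strand.

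Among 18 tested genes of 8p that are often lost in carcinomas, none was called in either comparison of lines. Over all gene bodies 18.1% and 18.3% were called. The median log2 difference of the listed genes was -0.00 at 16 µM and 0.01 at 32 µM against 16 µM. The median over all tested genes was -0.01. The values at 16 µM ran from -0.16 for RHOBTB2 to 0.17 for TNFRSF10B, a TRAIL death receptor. DLC1, a candidate tumour suppressor, stood at 0.00, and TUSC3, a subunit of the oligosaccharyltransferase complex, at -0.01. The 8p11 to 8p12 region, amplified in some carcinomas, gave a like count: 0 of 18 genes were called, with medians of -0.01 and -0.03 and a range at 16 µM from -0.47 for ZNF703, a transcriptional corepressor, to 0.32 for BRF2, a subunit of an RNA polymerase III initiation factor. BRF2 had the opposite sign at 32 µM against 16 µM, where it was the lowest of these genes at -0.46. FGFR1, a receptor tyrosine kinase, was at 0.05. Of 12 defensins, 2 had enough reads to be tested and neither was called (DEFB1 at -0.56 and DEFB134 at -0.20). In simulated counts the gene-body test at 16 µM recovered 2% of 1.3-fold and 50% of 1.5-fold changes. An uncalled gene of these lists may therefore still differ between the lines.

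Among 22 genes of 8q that are often gained in serous ovarian cancer, 16 were called higher at 16 µM and 17 at 32 µM against 16 µM, with a median of 0.41 in both. Of all tested gene bodies on 8q, 70.6% and 73.4% were called, so the share of listed genes was near that of the arm. The genes spanned segments with low and high differences. SQLE, an enzyme of cholesterol synthesis in segment 4, was lowest at 0.21, and PUF60, a splicing factor in segment 7, was highest at 1.5002.

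MYC (chromosome 8, 128747680 to 128755197) lies in segment 4 and covered only 8 windows. Its level was 31.3, 27.4 and 23.7 reads per window in the PEO1 16 µM libraries, 36.3, 40.8 and 33.9 in those of PEO4 16 µM and 29.3, 27.9 and 27.3 in those of PEO4 32 µM. The PEO4 libraries at 16 µM were all above those of PEO1, and those at 32 µM overlapped with them. MYC was not called in either comparison, at 0.45 (edgeR adjusted p = 0.0974) and 0.08 (edgeR adjusted p = 0.913). The untreated PEO1 libraries stood at 25.0, 18.0 and 23.1 and those of PEO4 at 33.9, 28.4 and 33.7.

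PVT1 (128806772 to 129199347), next to MYC but with 436 windows, was called in both comparisons. Its level was 29.6, 25.9 and 26.1 in PEO1 16 µM, 31.1, 35.2 and 33.9 in PEO4 16 µM and 32.9, 29.4 and 29.9 in PEO4 32 µM. PVT1 was higher in all PEO4 libraries at 16 µM and overlapped with PEO1 in part at 32 µM, with log2 differences of 0.31 (edgeR adjusted p = 0.00128) and 0.21 (edgeR adjusted p = 0.0313). The call at 16 µM was kept in 9 of 9 other settings, but that at 32 µM against 16 µM in only 2 of 9 (edgeR adjusted p up to 0.120). Both genes were dense in either line, as was the whole of segment 4.

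PTK2 (141667999 to 142012315), which encodes focal adhesion kinase, lies across the end of segment 5. Its level was 17.4, 18.2 and 17.2 reads per window in PEO1 16 µM, 33.6, 32.3 and 32.6 in PEO4 16 µM and 32.5, 32.6 and 33.6 in PEO4 32 µM. The groups of the lines were far apart and the doses of PEO4 overlapped. The log2 differences were 0.92 (edgeR adjusted p = 1.74e-08) and 0.94 (edgeR adjusted p = 1.64e-08).

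PUF60 (144898514 to 144912879) in GC-rich segment 7 was at 14.95, 7.8 and 10.5 in PEO1 16 µM, 23.6, 36.4 and 32.6 in PEO4 16 µM and 45.3, 29.2 and 29.0 in PEO4 32 µM. The lines did not overlap, though levels within a group were spread. The log2 differences were 1.5002 (edgeR adjusted p = 5.25e-06) and 1.68 (edgeR adjusted p = 1.31e-06). In the 16 µM groups the library apart from the others was replicate 1 in each line, which are libraries with the GC trends given above, and the part of these trends in the gene's spread was not tested.

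Of 20 tested genes of DNA repair and replication on chromosome 8, 7 were called higher in PEO4 in each comparison and none lower, with medians of 0.25 and 0.20. Of all tested gene bodies on chromosome 8, 46.0% and 47.7% were called, so the listed repair genes did not exceed the share of the chromosome. Those on 8p and in the 8q part of segment 1 were not called. WRN, a RecQ helicase on 8p (30891304 to 31033654), was at -0.11 and 0.01, POLB, the polymerase of base excision repair on 8p, at 0.13 and 0.04, and PRKDC, the DNA-dependent protein kinase of end joining on 8q next to the centromere, at -0.03 and -0.05. The lowest value at 16 µM was -0.15 for ESCO2, a cohesin acetyltransferase on 8p.

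NBN (90936743 to 91015456), a subunit of the MRE11 complex that senses double-strand breaks, lies in segment 3. Its level was 10.98, 12.2 and 13.2 reads per window in PEO1 16 µM, 19.5, 16.8 and 17.6 in PEO4 16 µM and 16.7, 18.8 and 14.7 in PEO4 32 µM, with no overlap of lines. The differences were 0.58 (edgeR adjusted p = 0.000929) and 0.49 (edgeR adjusted p = 0.00457). RAD21 (117858173 to 117887015), a cohesin subunit counted also among the gained genes of 8q, was at 25.8, 19.9 and 24.2 in PEO1 16 µM, 29.3, 28.2 and 29.3 in PEO4 16 µM and 26.5, 27.4 and 29.2 in PEO4 32 µM. RAD21 was called at 16 µM, at 0.33 (edgeR adjusted p = 0.0347), and not at 32 µM against 16 µM, at 0.29 (edgeR adjusted p = 0.080). The 16 µM call was kept in 5 of 9 other settings (edgeR adjusted p up to 0.225), and 2 of 9 called the other comparison, so the doses are not shown to differ for RAD21.

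RECQL4 and TONSL lie in segment 7 and had the largest differences of the repair list. RECQL4 (145736671 to 145743229), a RecQ helicase, was at 11.9, 8.0 and 7.8 in PEO1 16 µM, 19.1, 28.2 and 25.0 in PEO4 16 µM and 47.4, 22.2 and 26.3 in PEO4 32 µM. The differences were 1.40 (edgeR adjusted p = 0.000578) and 1.82 (edgeR adjusted p = 3.08e-05). TONSL (145654158 to 145669823), which acts in repair of stalled replication forks, was at 17.1, 7.7 and 8.6 in PEO1 16 µM, 18.8, 39.4 and 31.8 in PEO4 16 µM and 38.1, 23.03 and 26.2 in PEO4 32 µM. Its lines did not overlap, but the PEO1 library with the highest level, replicate 1, came close to the PEO4 library with the lowest, also replicate 1. The differences were 1.46 (edgeR adjusted p = 4.18e-05) and 1.43 (edgeR adjusted p = 5.3e-05).

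Long gene bodies hold many reads and mark single parts of the chromosome well. Of 18 gene bodies of at least 500 kb, 10 were called higher in PEO4 in each comparison, with medians of 0.38 and 0.43. Of all tested gene bodies on the chromosome 46.0% and 47.7% were called, and nothing particular to long genes is read from these counts. The lowest at 16 µM was DLGAP2, a postsynaptic scaffold gene on 8p, at -0.14. CSMD1 (2792875 to 4852494) on 8p had a low level in all treated libraries, at 5.0, 5.0 and 5.1 in PEO1, 5.2, 5.0 and 4.7 in PEO4 16 µM and 4.6, 4.9 and 5.1 at 32 µM, with differences of 0.00 and -0.01. NKAIN3 (63161150 to 63926559), which encodes a protein that binds the sodium pump, lies within segment 2. Its level was as low as that of CSMD1 in PEO1, at 4.9, 5.2 and 5.2, but 11.1, 10.0 and 9.8 in PEO4 16 µM and 10.4, 11.3 and 11.3 at 32 µM. NKAIN3 had the highest difference of the long genes at 16 µM, 1.03 (edgeR adjusted p = 6.03e-08), and 1.14 at 32 µM against 16 µM (edgeR adjusted p = 1.95e-08). CSMD3 (113235157 to 114449168), a relative of CSMD1 in segment 4, was at 18.4, 22.01 and 21.5 in PEO1 16 µM, 29.1, 24.4 and 25.4 in PEO4 16 µM and 24.2, 32.1 and 29.3 at 32 µM, with differences of 0.37 (edgeR adjusted p = 0.0421) and 0.51 (edgeR adjusted p = 0.00404). The first call was kept in only 4 of 9 other settings (edgeR adjusted p up to 0.237) and the second in 8 of 9.

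The second question of the design was whether cisplatin moved reads along chromosome 8 within a line, and whether it did so differently in both lines. Responses against untreated libraries subtract the values on whose line difference the chromosome was selected, so their p-values are a description and not a test. Only PEO4 32 µM against 16 µM leaves these values out, with an exact permutation p of 0.3 on 8p and 0.9 on 8q. No response of an arm within a line reached the smallest p that the design allows. Over the 4 comparisons within lines, the log2 response of the 8p share lay between -0.01 and 0.00 (smallest exact permutation p = 0.2) and that of the 8q share between -0.02 and 0.04 (smallest exact permutation p = 0.2), against replicate SDs of 0.0088 and 0.031. The ratio of 8q to 8p density moved by -0.00 to 0.05 (smallest exact permutation p = 0.3, replicate SD 0.038). The arm response difference between lines, PEO4 minus PEO1, is given with no test, since it subtracts the untreated values of both lines. It was 0.01 on 8p at equal dose and -0.00 with PEO4 at the higher dose, and 0.04 and 0.05 on 8q. With 3 libraries against 3, no value of these tests can fall below 0.1.

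By edgeR no 100 kb bin and no 1 Mb bin of chromosome 8 was called in any of the 6 treatment comparisons: PEO1 16 µM, PEO4 16 µM and PEO4 32 µM against untreated, PEO4 32 µM against 16 µM, and both response differences. The share called over all bins was 0.0% in each of the 6 for both bin sizes. For chromosome 8, the comparisons that subtract untreated libraries are a description and not a test. Of the 1416 tested 100 kb bins of chromosome 8, those with an unadjusted p under 0.05 numbered 47, 16, 112, 32, 45 and 79 in that order. These were 3.3%, 1.1%, 7.9%, 2.3%, 3.2% and 5.6%, against 3.1%, 2.1%, 9.3%, 2.9%, 4.2% and 7.7% over all tested 100 kb bins. Of the 144 tested 1 Mb bins, 1, 1, 16, 4, 1 and 2 had an unadjusted p under 0.05. These were 0.7%, 0.7%, 11.1%, 2.8%, 0.7% and 1.4%, against 0.8%, 0.7%, 10.0%, 1.2%, 1.3% and 3.5% over all tested 1 Mb bins. In a total of 98 fits over 24 settings for each bin size, DESeq2 and limma included, no bin of chromosome 8 was called in a treatment comparison. In simulated counts, edgeR for PEO4 16 µM against untreated recovered 20% of 1.3-fold and 82% of 1.5-fold changes in 100 kb bins. It recovered 86% of 1.3-fold changes in 1 Mb bins, and the other treatment comparisons were not simulated. Small changes with cisplatin may therefore have gone uncalled.

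Gene bodies gave 1 call. In PEO1 16 µM against untreated, 0.0058% of all gene bodies were called, which is 1 gene, and it lies on 8q. The gene is LY6H (144239331 to 144242128), which encodes a membrane-anchored protein of the Ly6 family, and it is named here after its values were seen. It covers 3 windows of 54.9% GC. Its counts were 2, 7 and 2 in untreated PEO1 and 57, 40 and 24 in PEO1 16 µM, a log2 change of 3.29 (edgeR adjusted p = 0.0471). LY6H passed the limit of a mean count of 50 over all libraries through its PEO4 counts, so nothing is supported with this call. In PEO4 counts were 85, 104 and 92 untreated, 52, 75 and 133 at 16 µM and 99, 40 and 89 at 32 µM, with overlapping groups. The PEO1 call was kept in 2 of 9 other settings, with adjusted p-values from 0.00833 to 0.910 over them, and was lost on leaving out any 1 of 5 of the 6 PEO1 libraries. In the other 5 treatment comparisons 0 gene bodies were called by edgeR on chromosome 8, and 0.0% over all genes, with 10 to 62 gene bodies of chromosome 8 at an unadjusted p under 0.05. These were 1.6% to 10.0% of its tested gene bodies, against 2.4% to 8.2% over all gene bodies. None of the listed genes was called in any treatment comparison.

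Segment values under treatment are a description with no test, since each subtracts untreated values, and the untreated difference between lines chose the chromosome and drew the segments. As counted, segment 7 stood at 0.27 in PEO1 16 µM, -0.23 in PEO4 16 µM and -0.18 in PEO4 32 µM against untreated. Without PEO1 16 µM replicate 1 the first value was 0.099 and without untreated PEO1 replicate 1 it was 0.15, without PEO4 16 µM replicate 1 the second was -0.059, and on leaving out a library the third ran from -0.32 to -0.086. Segment 6 stood at 0.25, -0.28 and -0.25. The lines thus had opposite signs, and the response difference at 16 µM was -0.53 in segment 6 and -0.51 in segment 7. For 32 µM against 16 µM it was -0.50 and -0.46. With the GC trend of each library removed, segment 7 stood at 0.04, 0.01 and 0.04 in the 3 treated groups, and its response difference at 16 µM was -0.03. In segment 6 the values were 0.04, -0.06 and -0.02, and the response difference was -0.10.

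The libraries behind the segment 7 values can be told from their densities as counted. In PEO1 these were 0.624, 0.787 and 0.843 untreated and 1.21, 0.801 and 0.788 at 16 µM, so that replicate 1 at 16 µM stood above the rest. In PEO4 they were 3.23, 2.77 and 3.26 untreated, 1.96, 3.01 and 2.87 at 16 µM and 3.26, 2.28 and 2.48 at 32 µM, so that replicate 1 at 16 µM and replicates 2 and 3 at 32 µM stood below. These are the libraries with the steepest GC trends. Without PEO1 16 µM replicate 1 the response difference at 16 µM was -0.33 in segment 7, and without PEO4 16 µM replicate 1 it was -0.33 as well. In segment 6 it was -0.34 and -0.36 without these libraries.

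**Figure D5:**
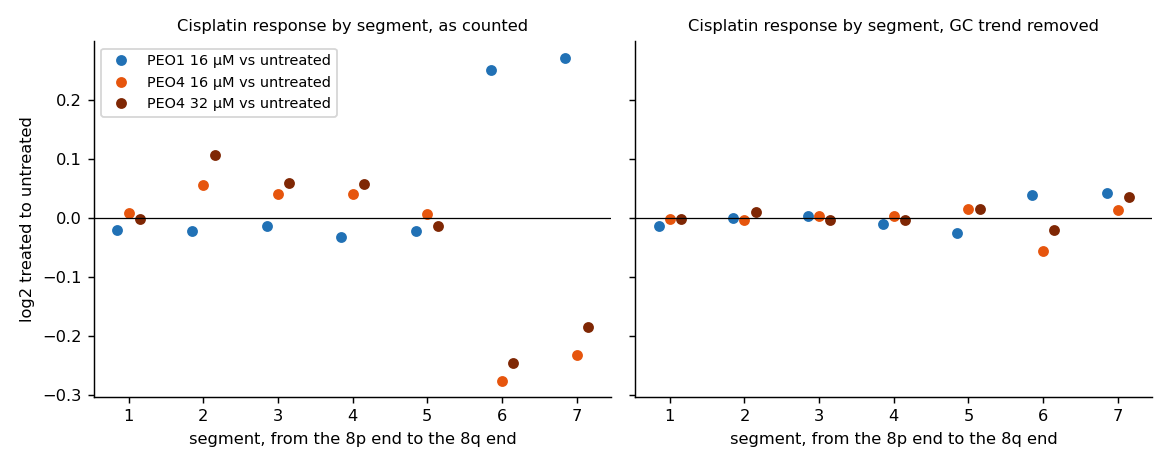
Log2 ratio of treated to untreated libraries by segment, for PEO1 16 µM and PEO4 16 µM and 32 µM, as counted (left) and with the GC trend of each library removed (right). As counted, segments 6 and 7 stand at 0.25 and 0.27 in PEO1 and between -0.28 and -0.18 in PEO4, and with the trend removed all values lie between -0.06 and 0.04.

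Among single bins, the 1 Mb bin of 8q with the largest value in PEO1 was 145000001 to 146000000, at 0.36, or 0.05 with a GC offset in the edgeR fit. In PEO4 the lowest bin of 8q was 142000001 to 143000000 at both doses, at -0.27 and -0.25, or -0.07 and -0.04 with the offset. The highest bins of PEO4 32 µM were AT-rich: 14000001 to 15000000 on 8p, in SGCZ, at 0.19, and 115000001 to 116000000 on 8q, at 0.20, or 0.013 and 0.0057 with the offset. None of these bins was called by edgeR.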

How the data were processed

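Pt-exo-seq libraries of PEO1 and PEO4 were made and processed by the authors. The authors deposited raw read counts on hg19, without normalisation, for windows of 1 kb stepped by 900 bp. According to the study's methods and processing notes, single Illumina reads were trimmed with BBDuk and aligned with Bowtie2, ENCODE blacklist regions were removed, and duplicates were removed with Picard. Reads had no molecular identifiers.

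Windows were summed by midpoint into 100 kb bins, 1 Mb bins and gene bodies (GENCODE release 44 on GRCh37). Features with a mean count of at least 50 (100 kb bins, genes) or 500 (1 Mb bins) were tested on chromosomes 1 to 22 and X by edgeR 4.0.16 (R 4.3.3) with TMM factors, quasi-likelihood F tests, 1 fit of 15 libraries and Benjamini-Hochberg adjustment over all features of a comparison. Single values per library were compared by exact two-sided permutation tests. Density was the number of reads per window with a read in any library, divided by that of the median autosomal bin. GC trends were removed by a lowess fit (fraction 0.3) per library, of its density for densities and of its log2 ratio to the mean of all libraries for shares, differences and the GC offset. Segments were found by least-squares optimal partitioning with a minimum of 1 Mb and a penalty of 20 times the noise variance times the log of the bin number. The scripts were tested on simulated data. Alternatives were DESeq2 1.42.0, limma 3.58.1, other scalings and filters, a GC offset, a replicate block and each library left out.

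The members, lists and named features were chosen with earlier results of these data known. Named were, per arm and comparison, the 1 Mb bins with the largest and smallest log2 and the 100 kb bins with the smallest p in each direction, and, per gene list, the members with the highest and lowest log2 at 16 µM and a fixed set of 14 genes. Same-numbered replicates were not taken as paired, since their deviations correlated by over 0.1 in only 11 of 30 pairs, with values from -0.676 to 0.634.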

Additional observations from a re-analysis of the deposited data

Results flagged for a closer look

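A total of 3 values met a rule for a closer look, each because every library of PEO4 at 16 µM and every library of PEO1 at 16 µM moved in opposite directions from the untreated mean of its line. The response difference, PEO4 minus PEO1, was 0.0294 in segment 1, -0.53 in segment 6 and -0.51 in segment 7. These differences are a description and were not taken as tested, because they subtract the untreated values of both lines, whose difference chose the chromosome and drew the segments (log2 1.38 in segment 6 and 1.98 in segment 7, untreated). With the GC trend of each library removed the values were 0.01, -0.10 and -0.03.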

How the results depend on the processing

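Line differences in the 8q share, the density ratio and segments 2 to 7 kept their sign in the alternatives run. No treatment comparison gave a called bin of chromosome 8 in any of them, which is a description where untreated libraries are subtracted. The arm shares were called when edgeR was fitted over 24 features, at -0.0273 and -0.0418 on 8p and 0.47 and 0.48 on 8q for 16 µM and for 32 µM against 16 µM. With the library total taken without chromosome 8, the 8p difference at 16 µM was 0.00315, and that for 32 µM against 16 µM kept its sign. With medians over 100 kb bins, the largest response of the 8p share in absolute value was 0.026 and the largest response difference 0.047. With the GC trend removed, these were 0.0043 and 0.0066 for the 8q share and 0.0079 and 0.0092 for the ratio of 8q to 8p density. With the GC trend removed, segment 1 turned to 0.0064 and 0.0053 in the comparisons of lines, and segment 7 to 0.014 and 0.035 in PEO4 at 16 µM and 32 µM.

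Counts of called features on 8p were small and unstable. For 100 kb bins at 16 µM (1 in the report) they were 2 without TMM, 8 with a GC offset, 8 with a replicate block and GC offset, 0 with only the groups compared, 2 with DESeq2, and 1 to 4 on leaving out a library, 4 without PEO1 16 µM replicate 1. For 32 µM against 16 µM (2 in the report) they were 8 with a GC offset, 1 with a replicate block, 7 with a replicate block and GC offset, 0 with only the groups compared, 4 with DESeq2, and 1 to 7 on leaving out a library, 7 without PEO4 32 µM replicate 1. For 1 Mb bins they were 7 with a GC offset, with and without the block, at 16 µM, and 1 without TMM, 4 with a GC offset, 4 with the block and GC offset and 0 to 2 on leaving out a library for 32 µM against 16 µM. For gene bodies on 8p they were 0 to 1 at 16 µM on leaving out a library, and for 32 µM against 16 µM 1 without TMM, 1 with a GC offset and 0 to 2 on leaving out a library. The single gene called on 8q in PEO1 was lost without TMM (0) and with the replicate block (0), and the count was 0 to 1 on leaving out a library.

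A fit chosen after seeing the data, with a replicate block and only the groups compared, called 453 of 987 bins of 100 kb on 8q at 16 µM and 0 on 8p, and 11 on 8p for 32 µM against 16 µM, with 4 of the 1 Mb bins. The same numbers were not taken as pairs: only 2 of 10 pairs of groups had every correlation over 0.1, and 1 of 15 libraries correlated best with its own number. On leaving out a library, segment 7 in PEO4 at 32 µM against 16 µM ran from -0.13 to 0.15 and MYC at 32 µM against 16 µM from -0.000727 to 0.137. Causes were not tested. Of 35 pairs of an uncalled named gene and a comparison of lines, 22 changed sign in some setting, and none of 17 called pairs did, although the calls of PVT1 at 32 µM against 16 µM, CSMD3 and RAD21 at 16 µM were lost in 4 or more settings. Intervals between replicates cover these libraries only.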
